A study of Mus musculus with 16 samples.

Results

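Loss of Ezh2 alone was examined in mouse kidneys, taken whole at embryonic day 17.5, by setting the 4 arrays of the Ezh2-KO & Ezh1-WT genotype against the 4 arrays of control wildtype kidneys, which are 8 of the 16 arrays of the series. The arrays were chosen by their titles and not by any measured value. In the Ezh2-KO group Ezh2 was conditionally and homozygously knocked out in Six2-positive nephron progenitor cells and Ezh1 was wild type. Of the remaining 8 arrays, 4 carried the same Ezh2 deletion with germline Ezh1 heterozygous knockout (Ezh1-het) and 4 carried it with homozygous Ezh1 knockout (double knockout), and they serve here to locate the Ezh2-KO group among the genotypes. All embryos were C57BL/6. Every array held its own sample in Cy5 and the RNA of control 1 in Cy3, so a level is the log2 ratio of Cy5 to Cy3 and a log2 difference is the Ezh2-KO mean minus the control mean. The array of control 1 measured that RNA against itself, so its levels lie near 0 by design and the spread of the controls may be understated. The labels do not name the driver of the deletion. Because it was aimed at nephron progenitors and whole kidneys were profiled, cells in which Ezh2 was not deleted (stroma, endothelium, ureteric epithelium, blood cells) contributed to each value, and fewer cells of a type cannot be told apart from less RNA per cell.

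EZH2 and its relative EZH1 are alternative catalytic subunits of Polycomb repressive complex 2 (PRC2), which methylates lysine 27 of histone H3 together with EED and SUZ12. The mark is associated with silencing of developmental genes, many of which start in stretches rich in the dinucleotide CG, and a second complex, PRC1, binds it. In the fetal kidney, Six2-positive progenitors capping the ureteric bud either renew themselves or become the epithelium of the nephron, from podocyte to distal tubule.

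Cy5 signal was stronger on most Ezh2-KO arrays than on the controls. The share of probes well above background in Cy5 was 58.35% to 63.43% on the Ezh2-KO arrays and 53.13% to 60.74% on the control arrays. The ratio of Cy5 signal to background at the 75th percentile of probes was 10.74 to 16.64 on the Ezh2-KO arrays and 5.208 to 10.75 on the controls, with Ezh2-KO 4 the highest and control 2 the lowest of all 16 arrays. Along the leading principal component (36.1% of the variance) Ezh2-KO 1 scored -31.4 and Ezh2-KO 4 scored 24.2, while control 3 scored -37.3. Control 2 stood apart on the second component (22.6%), with a score of 46.6. Replicates 1 and 2 of every genotype lay on slide 1 and replicates 3 and 4 on slide 2. Kidney markers were present, since 12 of 12 kidney identity genes (among them Pax2, Six2, Lrp2 and Aqp2) were well above background on all Ezh2-KO arrays and 11 of 12 on all controls.

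At gene level, 482 of 15646 (3.08%) were called different in Ezh2-KO against control kidneys at an adjusted p under 0.05 (limma, Benjamini-Hochberg). Of these, 376 were higher (2.4%) and 106 lower (0.677%), and 220 (1.41%) differed by at least 1.5-fold. Counts of list members called below stand beside these shares, and the lists were chosen with earlier results of these data known. The 4 Ezh2-KO arrays lay wholly above the 4 controls for 1237 genes (7.91%) and wholly below them for 518 (3.31%). The called genes without overlap between the groups numbered 457 (2.92%). After loess, the median over all genes lay at 0.060. With median centring in place of loess this median was 0.41 and 97.5% of the called genes were higher, against 78% with loess, so directions are given relative to the loess baseline. The count depended on single arrays. It was 509 without control 1, 202 without Ezh2-KO 2, 265 without Ezh2-KO 4, 204 without control 2 and 78 without controls 2 and 3 together, and 59 when only these 8 arrays entered the fit. Of the 482 genes, 157 were called in each of the 8 fits that left out 1 array, 138 of them higher and 19 lower.

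Ezh2 itself was measured by 5 probes, and 1 of them fell. Probe A_51_P248067 had levels of -3.38, -3.47, -2.83 and -3.59 in Ezh2-KO kidneys, against 0.09, -0.51, 0.44 and 0.37 in controls. Its log2 difference was -3.41 (SE 0.21, adjusted p = 2.19e-07), which left 9.39% of the control signal. The other 4 Ezh2 probes kept 75.5% to 82.7% of the control signal, and none passed the threshold (adjusted p of 0.0944 to 0.235). Probe A_55_P2619337, the brightest, which stands for the gene in the counts, had levels of -0.04, -0.10, -0.12 and -0.41 in Ezh2-KO kidneys, against -0.08, 0.52, -0.11 and 0.10 in controls. Where the probes lie relative to the deleted exons was not analysed here, and only a probe within them checks the deletion. Ezh1 had levels of 0.37, 0.28, -0.30 and -0.17 in Ezh2-KO kidneys, against 0.05, -0.31, 0.22 and -0.28 in controls, with a log2 difference of 0.12 (SE 0.15, adjusted p = 0.65). None of the 10 genes measured next to Ezh2 in the gene annotation passed the threshold.

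**Figure D1:**
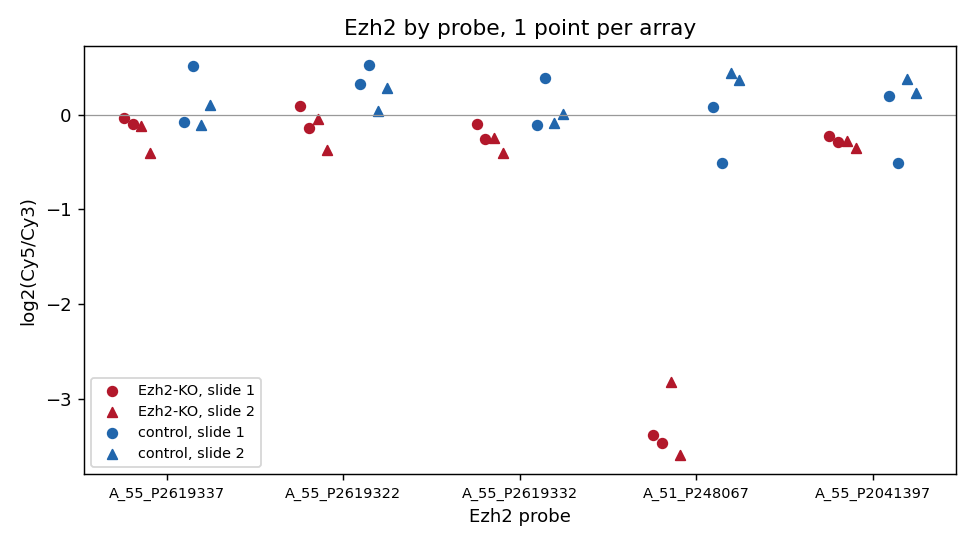
Levels of the 5 Ezh2 probes as log2(Cy5/Cy3) on each Ezh2-KO and control array (circles slide 1, triangles slide 2). Probe A_51_P248067 lay between -3.59 and -2.83 on the Ezh2-KO arrays, while each of the other 4 probes overlapped the controls.

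Bcl11a, Lin28b, Miat and Nr1h5 had some of the largest differences, and their promoters are shown because PRC2 targets often start in CG-rich sequence. The 250 bases before each start are given from RefSeq (GRCm38.p6), 5' to 3' on the strand of the gene, with every CG in capitals.
Bcl11a, chr11:24080445-24080694, + strand: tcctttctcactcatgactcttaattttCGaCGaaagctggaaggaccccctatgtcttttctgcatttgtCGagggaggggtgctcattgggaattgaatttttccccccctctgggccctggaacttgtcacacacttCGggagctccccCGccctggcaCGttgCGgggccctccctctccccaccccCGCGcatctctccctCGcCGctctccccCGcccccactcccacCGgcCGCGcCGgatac
Lin28b, chr10:45470202-45470451, - strand: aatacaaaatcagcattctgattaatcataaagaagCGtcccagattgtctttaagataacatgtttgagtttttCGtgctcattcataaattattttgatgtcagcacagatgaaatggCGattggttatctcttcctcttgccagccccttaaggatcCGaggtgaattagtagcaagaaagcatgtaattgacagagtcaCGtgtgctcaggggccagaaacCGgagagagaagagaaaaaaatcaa
Miat, chr5:112228949-112229198, - strand: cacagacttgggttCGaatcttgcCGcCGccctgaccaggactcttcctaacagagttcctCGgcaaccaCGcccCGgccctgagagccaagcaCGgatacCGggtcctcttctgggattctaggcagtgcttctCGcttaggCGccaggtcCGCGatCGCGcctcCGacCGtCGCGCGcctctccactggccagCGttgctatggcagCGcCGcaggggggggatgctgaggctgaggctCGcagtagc
Nr1h5, chr3:102964134-102964383, - strand: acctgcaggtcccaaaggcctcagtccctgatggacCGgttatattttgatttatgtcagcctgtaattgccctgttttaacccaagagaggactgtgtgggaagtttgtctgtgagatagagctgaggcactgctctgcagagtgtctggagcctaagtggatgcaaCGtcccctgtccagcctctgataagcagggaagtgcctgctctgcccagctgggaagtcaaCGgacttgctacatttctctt
CG, which reads the same on both strands, occurs 16 times in the Bcl11a stretch, 6 times in that of Lin28b, 23 times in that of Miat and 3 times in that of Nr1h5. Of 32851 promoters in the table, 92.1% hold at least 1 CG in these 250 bases, with a median of 6 and quartiles of 2 and 16. The stretches of Bcl11a and Miat thus reached or passed the upper quartile, and those of Lin28b and Nr1h5 did not. Histone marks were not measured.

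Bcl11a, a zinc-finger repressor known for silencing fetal globin genes, rose nearly evenly across arrays. Its levels were 1.99, 1.74, 1.75 and 1.79 in Ezh2-KO kidneys, against 0.13, -0.18, -0.09 and -0.47 in controls (log2 difference 1.97, SE 0.13, adjusted p = 4.29e-07). Lin28b, an RNA-binding protein that blocks maturation of let-7 miRNAs, had levels of 1.47, 1.72, 2.09 and 1.90 in Ezh2-KO kidneys, against -0.21, -0.19, -0.24 and 0.14 in controls. It was well above background on all 4 Ezh2-KO arrays and on 0 of 4 controls, and was at least 3.79-fold higher (adjusted p = 4.29e-07). Each such bound is the smaller of the fold over the dimmer group's floor (its own signal or the lowest well above background on the array, whichever is higher) and the fold of the fitted means. For Lin28b these were 4.64 and 3.79, and for all bounds given here the fitted fold was the smaller. Each bound is thus a point estimate that makes no allowance for its SE. The long non-coding RNA Miat had levels of 2.27, 2.11, 0.83 and 1.15 in Ezh2-KO kidneys, against -0.27, -0.9973, -0.42 and -0.44 in controls (2.12, SE 0.29, adjusted p = 0.00134). The 4 Ezh2-KO values were higher on slide 1 than on slide 2, but all lay above every control. A further Miat probe was at 0.15 (adjusted p = 0.338), and a further Lin28b probe at 0.35 (adjusted p = 0.0451). Of 2 further Bcl11a probes, 1 was at 1.75 (adjusted p = 2.19e-07) and 1 at 0.31 (adjusted p = 0.103). The sizes depended on the processing. With the mean over probes of a gene they were 1.34 for Bcl11a, 1.135 for Lin28b and 1.13 for Miat, and with the deposited log ratio 3.25, 5.21 and 2.53. All of these passed the threshold. Bcl11a and Lin28b also passed the threshold within each slide alone (adjusted p of 0.00883 and 0.00131 on slide 1, and 0.0104 each on slide 2).

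Among matrix and membrane genes, Fbln2, which encodes the matrix glycoprotein fibulin-2, had levels of 1.62, 1.83, 1.43 and 1.45 in Ezh2-KO kidneys, against 0.05, 0.14, -0.79 and 0.48 in controls (1.61, SE 0.20, adjusted p = 0.000778). Vstm2l had levels of 1.02, 1.00, 0.99 and 1.20 in Ezh2-KO kidneys, against -0.07, -0.07, -0.44 and 0.02 in controls (1.19, SE 0.11, adjusted p = 4.63e-05), a gap wider than the spread in either group. Sgce, the imprinted gene of epsilon-sarcoglycan, rose by 1.27 (SE 0.24) and Mpzl2, an adhesion molecule, by 1.11 (SE 0.25). The call of Mpzl2 ended without Ezh2-KO 2, 3 or 4 or control 2 (1.01 to 1.13). H2-K1 and H2-K2, genes of major histocompatibility complex class I, rose by 1.32 (SE 0.18) and 1.14 (SE 0.14). Their sequences are alike, so probes may share signal. H2-K1 had levels of 0.69, 1.01, 1.00 and 1.27 in Ezh2-KO kidneys, against -0.06, -0.39, -0.93 and 0.04 in controls, which do not overlap.

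The acute-phase genes Saa2 and Saa1 rose by 1.54 (SE 0.25, adjusted p = 0.0041) and 1.21 (SE 0.23, adjusted p = 0.0113), with a split between slides. Saa2 had levels of 2.23 and 2.11 in the Ezh2-KO kidneys of slide 1 and 0.73 and 0.95 in those of slide 2, against -0.17 to 0.18 in controls. Saa1 was likewise higher on slide 1, with 1.75, 1.80, 0.44 and 0.73 in Ezh2-KO kidneys and -0.11 to 0.04 in controls. The remaining members of the 20 largest rises were Fndc3c1 (1.37), Fam205a2 (1.12), Gm3893 (1.11), Plbd1 (1.08) and Gdpd2 (1.07), and each kept its call whichever single array was left out.

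Neutrophil genes S100a9, S100a8 and Stfa1, with the stefin-like Cstdc5, were 4 of the 20 largest rises, and they were uneven across arrays. S100a9, a subunit of the neutrophil protein calprotectin, had levels of 3.77, 1.60, 1.96 and 0.31 in Ezh2-KO kidneys, against -0.13, -0.66, -1.37 and 0.02 in controls (2.44, SE 0.55, adjusted p = 0.0273). Its partner S100a8 had levels of 3.27, 1.19, 1.70 and 0.29 in Ezh2-KO kidneys, against -0.03, -0.07, -0.49 and 0.00 in controls (1.76, SE 0.42, adjusted p = 0.033). Stefin A genes, which encode inhibitors of cysteine proteases and lie next to each other, followed the same order, with 3.18, 1.22, 1.80 and 0.34 for Stfa1 in Ezh2-KO kidneys and -0.64 to -0.02 in controls (1.94, SE 0.41). Cstdc5 rose by 2.10 (SE 0.42), Stfa2 by 1.29 (SE 0.31) and Stfa3 by 1.04 (SE 0.25), and because the stefin A genes are near copies their probes may share signal. Of 10 neutrophil markers tested, 5 rose and none fell. Over these 10 genes the mean level was 1.77, 0.65, 0.92 and 0.11 on the 4 Ezh2-KO arrays and -0.34 to 0.06 on the controls. The neutrophil granule genes Mpo (0.09, adjusted p = 0.61) and Elane (-0.25, adjusted p = 0.109) did not pass the threshold, and Ltf and Ngp did not pass the filter on dim probes. None of 12 macrophage markers was called higher, but 10 had a positive difference, with a list median of 0.40 beside 0.060 for all genes. The class II invariant chain Cd74 was called lower, by 0.50 (SE 0.12, adjusted p = 0.033). The number of neutrophil markers called was 0 without control 2, 1 without control 3, and 2 each without Ezh2-KO 2, Ezh2-KO 3 or control 4. The call of S100a9 ended without Ezh2-KO 2, control 2 or control 3 (2.17 to 2.55), that of Stfa1 without control 2 (1.90), and those of S100a8 (1.65 to 1.91), Stfa2 (1.18 to 1.37), Stfa3 (0.75 to 1.06) and Cd74 (-0.54 to -0.39) without any of 5 single arrays.

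**Figure D2:**
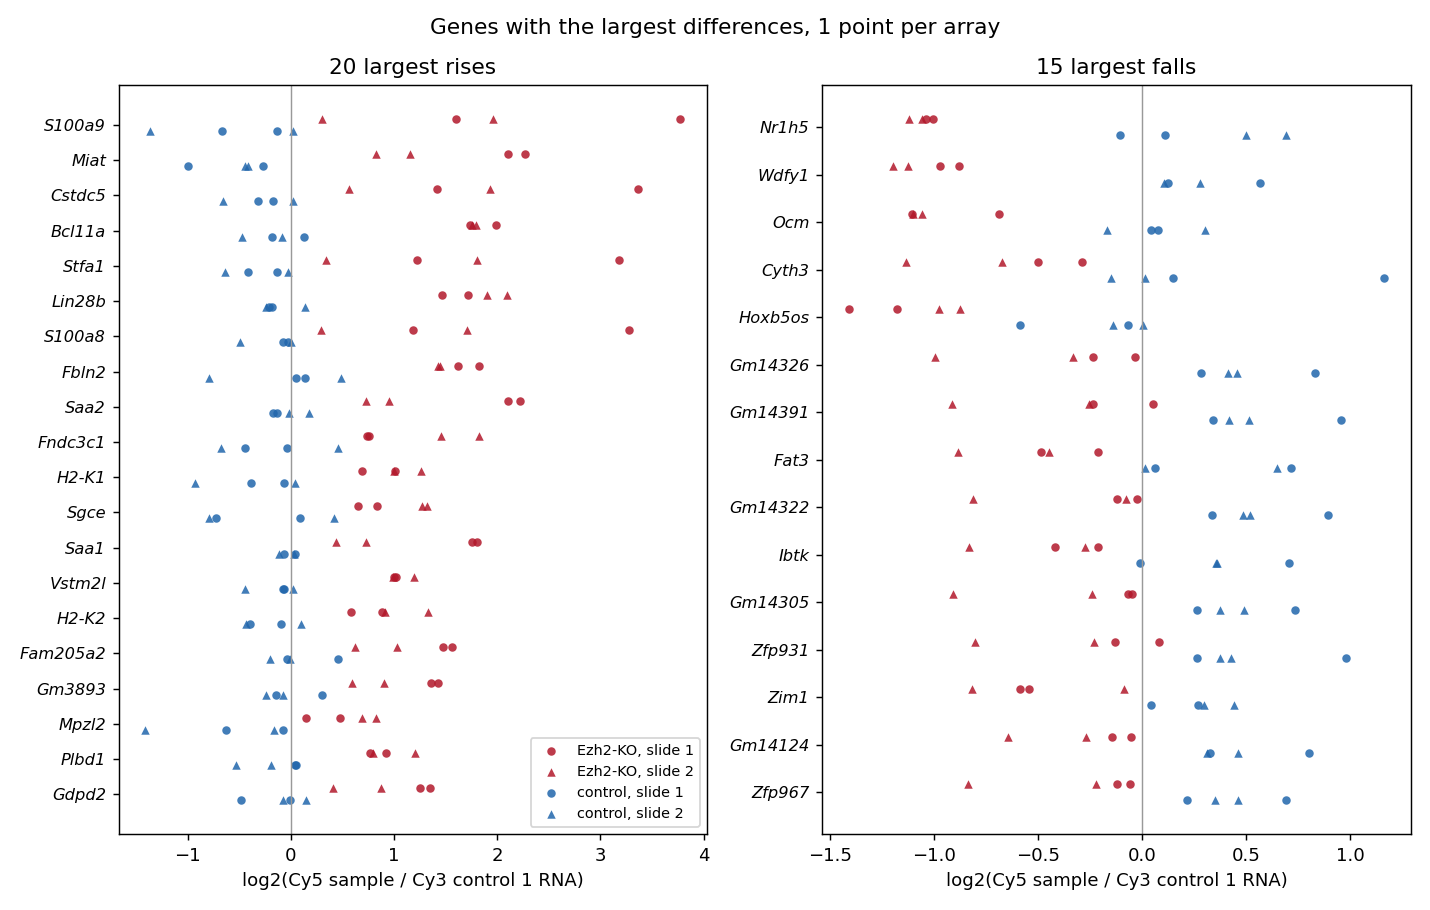
Levels as log2(Cy5/Cy3) of the 20 largest rises and the 15 largest falls among called genes whose groups do not overlap, 1 point per array (circles slide 1, triangles slide 2). Bcl11a, Lin28b and Vstm2l are tight within the Ezh2-KO group, whereas S100a9 ran from 0.31 to 3.77 there.

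Among genes represented by their brightest probe, the largest fall called was that of Nr1h5, which encodes a nuclear receptor related to the bile acid receptor. Its levels were -1.003, -1.04, -1.06 and -1.12 in Ezh2-KO kidneys, against 0.11, -0.11, 0.50 and 0.69 in controls. It was well above background on 0 of 4 Ezh2-KO arrays and on all 4 controls, and was at least 2.55-fold lower (adjusted p = 6.24e-05). Nr1h5 passed the filter on dim probes only through the controls, so these detection counts are not separate support. Its log2 difference was -1.35, and -4.68 with the deposited log ratio. Wdfy1, an endosomal adaptor, had levels of -0.88, -0.97, -1.13 and -1.20 in Ezh2-KO kidneys, against 0.12, 0.57, 0.28 and 0.10 in controls (-1.31, SE 0.19, adjusted p = 0.00216). Of 2 further Wdfy1 probes, 1 was at -1.10 (adjusted p = 0.00485) and 1 at 0.01 (adjusted p = 0.966). Ocm, a calcium-binding protein of the parvalbumin family, had levels of -0.69, -1.11, -1.06 and -1.10 in Ezh2-KO kidneys, against 0.04, 0.08, 0.30 and -0.17 in controls (-1.05, SE 0.13, adjusted p = 0.000727). The antisense transcript Hoxb5os fell by 0.91 (SE 0.14, adjusted p = 0.00273), while the value of Hoxb5 was -0.06 (adjusted p = 0.849). Under median centring Hoxb5os was at -0.37 and not called. Zim1, an imprinted zinc-finger gene, fell by 0.77 (SE 0.15, adjusted p = 0.014).

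Zinc-finger genes with closely similar sequences made up 7 of the 15 largest falls, namely Gm14326, Gm14391, Gm14322, Gm14305, Zfp931, Gm14124 and Zfp967, with log2 differences from -0.89 to -0.74. Their probes may share signal, so the 7 are not independent. Gm14326 had levels of -0.04, -0.23, -0.33 and -0.99 in Ezh2-KO kidneys, against 0.28, 0.83, 0.41 and 0.46 in controls (-0.89, SE 0.19, adjusted p = 0.0209). For all 7 the lowest array was Ezh2-KO 4 and the highest was control 2, the arrays with the highest and the lowest Cy5 signal. The same arrays were at the extremes for Cyth3, an exchange factor for ARF GTPases (-0.94, SE 0.23), the atypical cadherin Fat3 (-0.87, SE 0.18) and Ibtk (-0.79, SE 0.16). The 3 further Ibtk probes were at -0.04 to -0.01 (adjusted p of 0.776 to 0.959), and with the mean over probes the call ended. Further Fat3 probes were at -0.26 and -0.12 and did not pass. Among the zinc-finger genes, further probes were at -0.08 for Gm14322, -0.58 for Zfp931, and -0.16 and -0.66 for Zfp967. None of these passed (adjusted p of 0.0742 to 0.742). The calls of Gm14322 and Zfp967 ended with the mean over probes and with the deposited log ratio. Across the 106 genes called lower, Ezh2-KO 4 was the lowest Ezh2-KO array for 69 and control 2 the highest control for 67, where they held these places for 3958 and 4099 of all 15646 genes. Across the 376 genes called higher, control 2 was the lowest control for 198 and Ezh2-KO 4 the highest Ezh2-KO array for 140. Among all genes they held these places for 6711 and 5265. The part of array signal in these falls and rises was not tested. Without control 2 the calls of Gm14326 (-0.78), Gm14391, Gm14322, Gm14305, Zfp931, Gm14124, Zfp967, Cyth3, Fat3 and Ibtk (-0.67) ended, and without Ezh2-KO 4 those of Gm14391, Gm14322, Zfp931, Gm14124, Zfp967, Cyth3 and Fat3 ended. Calls also ended without Ezh2-KO 2 for Gm14391, Gm14322, Zfp931, Zfp967 and Cyth3, without Ezh2-KO 3 for Zfp931 and Cyth3, without control 3 for Zfp931, and without control 4 for Gm14322, Gm14305, Zfp931 and Zfp967. Under median centring the 7 zinc-finger genes were at -0.39 to -0.21 and Ibtk at -0.27, and of these 8 only Gm14305 (-0.38) was still called.

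Among the Polycomb genes, Epop, a PRC2-associated protein, was 1 of 13 PRC2 genes to rise, by 0.87 (SE 0.15, adjusted p = 0.00584), and none fell. Its levels were 0.77, 0.78, 0.37 and 0.53 in Ezh2-KO kidneys, against -0.12, -0.28, 0.05 and -0.66 in controls. The core subunits Eed (0.05, SE 0.10, adjusted p = 0.802) and Suz12 (0.07, SE 0.11, adjusted p = 0.699) and the cofactor Jarid2 (-0.26, SE 0.15, adjusted p = 0.327) did not pass the threshold. Of 21 PRC1 genes, Bmi1 rose, by 0.80 (SE 0.12, adjusted p = 0.00192). Bmi1 encodes a subunit of PRC1 known for repressing Cdkn2a, and its levels were 0.83, 0.91, 0.77 and 0.74 in Ezh2-KO kidneys, against 0.20, -0.18, 0.02 and 0.01 in controls. The other 20 PRC1 genes had differences of -0.20 to 0.43, and the median of the list was 0.23 beside 0.060 for all genes. None of 14 histone demethylase, DNA methylation and H3K9 methylation genes passed the threshold.

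Nephron progenitor genes changed in both directions, 3 higher and 2 lower of 23 tested, with a list median of 0.05. Cited1, a marker of the least committed progenitors, had levels of -0.65, -0.66, -0.72 and -0.87 in Ezh2-KO kidneys, against -0.04, -0.02, 0.34 and -0.39 in controls (-0.69, SE 0.13, adjusted p = 0.0104). Crym, a thyroid hormone-binding protein, fell by 0.66 (SE 0.17, adjusted p = 0.0494), a call that ended whichever single array was left out (-0.74 to -0.48). Under median centring neither Cited1 (-0.15) nor Crym was called and 11 members were called higher. Lypd1 was at least 1.33-fold higher (adjusted p = 0.00926) and was well above background on 0 of 4 controls. Six2, the self-renewal factor that marks the cells of the deletion, had levels of 0.26, 0.31, -0.47 and -0.37 in Ezh2-KO kidneys, against -0.03, -0.02, 0.60 and -0.55 in controls, which overlap (-0.07, SE 0.26, adjusted p = 0.9). Eya1, a coactivator of SIX2, was at -0.20 (SE 0.13, adjusted p = 0.379), a value that was positive under median centring.

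Of the differentiating nephron, 1 of 23 early nephron genes rose. This was Npy, a peptide made by early renal epithelium, with levels of 0.85, 0.82, 0.32 and 0.32 in Ezh2-KO kidneys, against -0.03, 0.02, -0.08 and -0.35 in controls (0.69, SE 0.14, adjusted p = 0.0162), a call that ended without Ezh2-KO 2 (0.60). Wnt4, the inducer of epithelial conversion, was at 0.27 (SE 0.16, adjusted p = 0.329), and the renal vesicle factor Lhx1 was at 0.01 (SE 0.31, adjusted p = 0.985). Pax8 had levels of 0.62, 0.53, 0.14 and 0.11 in Ezh2-KO kidneys, against -0.09 to -0.01 in controls, without overlap (0.41, SE 0.11, adjusted p = 0.0513). A further Pax8 probe was at 0.13 (adjusted p = 0.425), and its groups overlapped. None of 21 podocyte, 27 proximal tubule, 17 loop of Henle and distal tubule, 22 ureteric bud and collecting duct, 5 urothelial or 12 endothelial genes passed the threshold in limma, where 3329 genes (21.3%) had an unadjusted p under 0.05.

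Tubule genes varied within each group. The mean level of the 27 proximal tubule genes was -1.56, -0.67, -0.67 and 0.19 on the Ezh2-KO arrays, against 0.01, 0.39, -1.64 and -0.35 on the controls. Ezh2-KO 1 and control 3 were therefore low together, and the groups overlapped. The same 2 arrays were lowest in their groups for early nephron genes (-0.70 and -1.30), loop and distal genes (-0.91 and -1.12), ureteric and collecting duct genes (-0.79 and -0.84) and liver markers (-1.03 and -1.05). Ezh2-KO 1 lies on slide 1 and control 3 on slide 2. The median difference of proximal tubule genes was -1.17 on slide 1 and 0.71 on slide 2, and that of early nephron genes -0.47 and 0.93. Slc34a1, the phosphate transporter of the proximal tubule, had levels of -3.02, -1.31, -0.97 and 0.16 in Ezh2-KO kidneys, against 0.26, 0.79, -2.03 and -0.18 in controls (-0.99, SE 0.62, adjusted p = 0.357). Umod, made by the thick ascending limb, was at 0.00 (SE 0.40), the collecting duct water channel Aqp2 at 0.06 (SE 0.12) and the endothelial gene Pecam1 at 0.08 (SE 0.10), and none of the 3 passed the threshold.

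**Figure D3:**
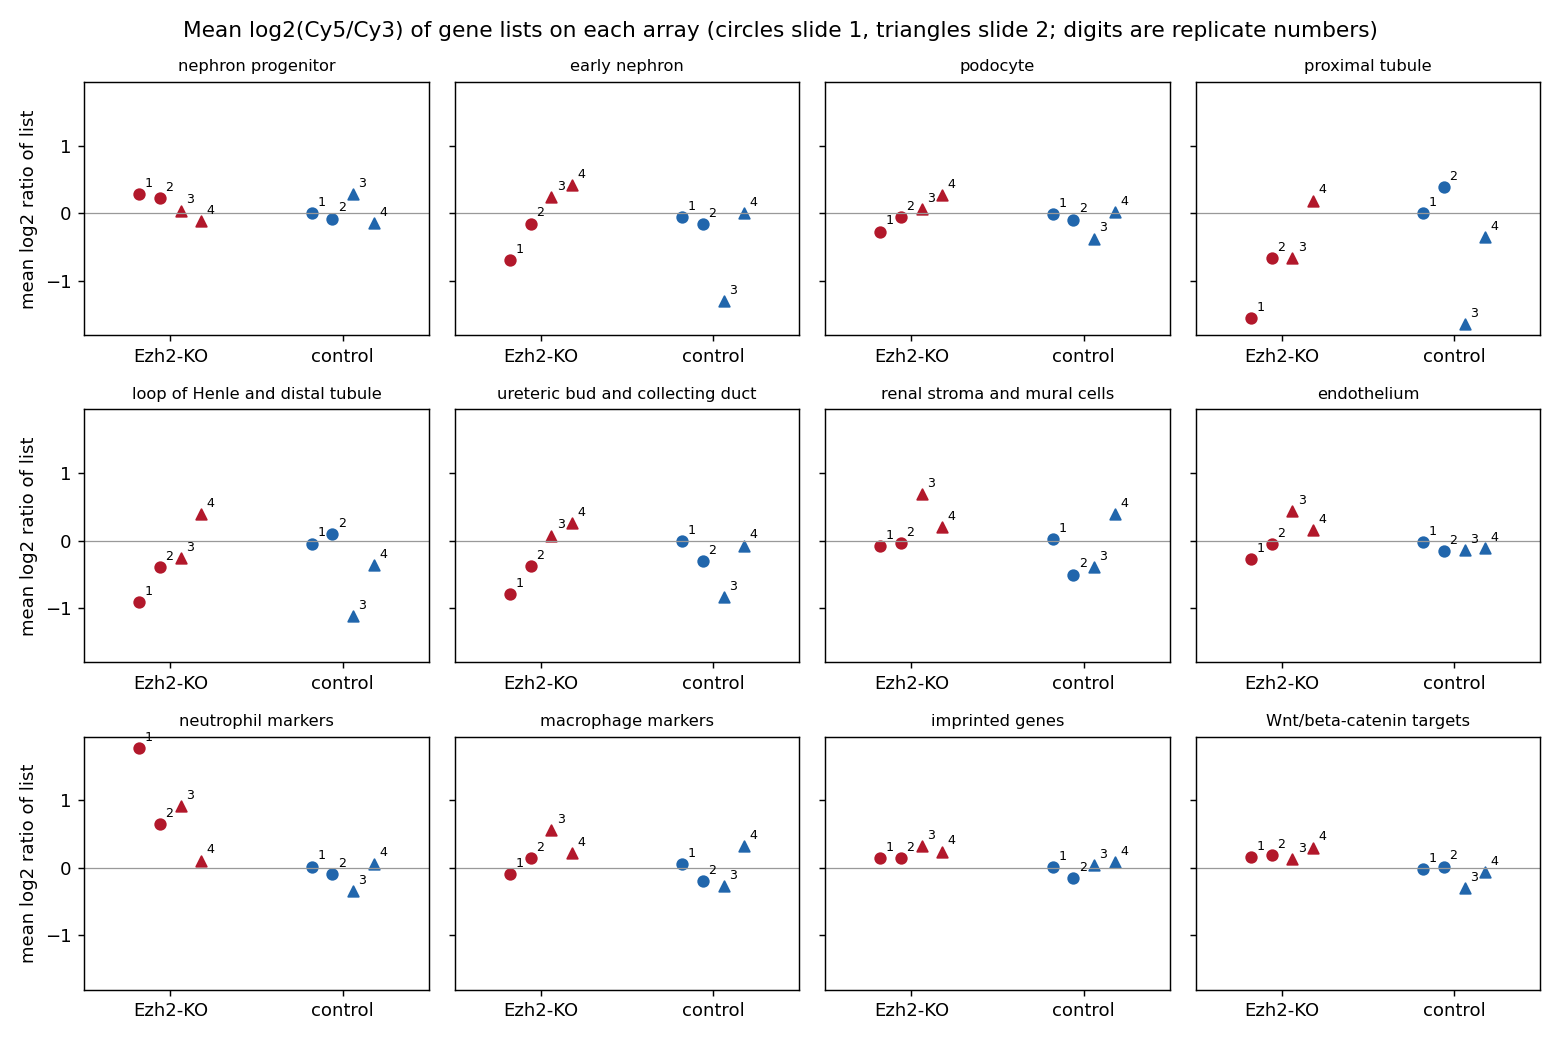
Mean level, as log2(Cy5/Cy3), of 12 gene lists on each Ezh2-KO and control array, with the replicate number beside each point (circles slide 1, triangles slide 2). Ezh2-KO 1 and control 3 lie low together in the tubule panels, while neutrophil markers ran from 0.11 to 1.77 on the Ezh2-KO arrays.

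Stromal and mural genes had 3 of 24 members higher, beside 2.4% of all genes, and none lower, with a list median of 0.38. Ren1, the gene of renin, had levels of 0.61, 0.68, 0.61 and 0.69 in Ezh2-KO kidneys, against 0.16, 0.01, -0.36 and -0.04 in controls (0.70, SE 0.12, adjusted p = 0.0041). Meis1, a homeobox factor of stroma, rose by 0.80 (SE 0.17, adjusted p = 0.0173), a call that ended without Ezh2-KO 2 (0.79). Dlk1, an imprinted Notch-ligand relative, had levels of 0.31, 0.54, 1.42 and 1.09 in Ezh2-KO kidneys, against 0.06, -0.76, -0.20 and 0.08 in controls (1.04, SE 0.21, adjusted p = 0.0159). Foxd1, the factor that marks stromal progenitors, was at 0.62 (SE 0.20, adjusted p = 0.0902). In the renin-angiotensin system, Agt, the gene of angiotensinogen from which renin releases angiotensin, rose with Ren1, making 2 of 8. It was well above background on all 4 Ezh2-KO arrays (0.24, 0.77, 0.78 and 1.34) and on 0 of 4 controls (-0.12 to -0.02), and was at least 1.79-fold higher (adjusted p = 0.0225). Its call ended without Ezh2-KO 2 or 4 or control 2 or 4 (0.65 to 0.85). Without controls 2 and 3 together none of the stromal or renin-angiotensin genes was called. Of 23 matrix genes, Lama5, a laminin chain of basement membranes, rose by 0.67 (SE 0.11, adjusted p = 0.00369) beside Fbln2.

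Oncofetal genes of the Lin28 and let-7 axis had 4 of 17 members higher, beside 2.4% of all genes, and none lower, although the list median was 0.03. Besides Lin28b these were Nr6a1, an orphan nuclear receptor of embryonic cells (0.97, SE 0.11, adjusted p = 0.00037), Igf2bp3, an oncofetal RNA-binding protein (0.76, SE 0.16, adjusted p = 0.0212), and Dusp9, a MAP kinase phosphatase (0.81, SE 0.20, adjusted p = 0.0352). Nr6a1 had levels of 0.52, 0.67, 0.65 and 1.05 in Ezh2-KO kidneys, against -0.17, -0.44, -0.21 and -0.18 in controls, without overlap. Igf2bp3 had levels of 0.48, 0.66, 1.17 and 1.05 in Ezh2-KO kidneys, against 0.00, 0.18, -0.25 and 0.40 in controls, and its call ended without Ezh2-KO 4 (0.69). The call of Dusp9 ended without any of 6 single arrays (0.64 to 0.87). Lin28a, the paralog, was at -0.05 (SE 0.09, adjusted p = 0.777), and the let-7 targets Hmga2 (-0.13, adjusted p = 0.655) and Igf2bp1 (-0.22, adjusted p = 0.355) did not pass.

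Imprinted genes had 4 members higher and 2 lower of 24 tested, beside 2.4% higher and 0.677% lower of all genes. Zdbf2, whose groups were far apart, had levels of 0.74, 0.73, 0.75 and 0.94 in Ezh2-KO kidneys, against 0.01, -0.16, -0.01 and 0.13 in controls (0.80, SE 0.09, adjusted p = 0.00037). Magel2, a paternally expressed ubiquitin ligase regulator, rose by 0.44 (SE 0.09, adjusted p = 0.0135), beside Dlk1 and Sgce. Mest fell by 0.60 (SE 0.14, adjusted p = 0.0343) and the growth-limiting adaptor Grb10 by 0.61 (SE 0.16, adjusted p = 0.0464). The call of Mest ended without any of 5 single arrays (-0.63 to -0.49) and that of Grb10 without any of 7 (-0.66 to -0.46), and under median centring 15 imprinted genes were called higher and none lower. The growth factor gene Igf2 was at 0.43 (SE 0.13, adjusted p = 0.0803) and the non-coding H19 at -0.15 (SE 0.14, adjusted p = 0.519). A further Igf2 probe was at -0.0008 (adjusted p = 0.998).

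Wnt/beta-catenin targets had 4 of 20 members higher, beside 2.4% of all genes, and none lower, with a list median of 0.23. All 4 encode proteins known to restrain Wnt signalling. The secreted antagonist Wif1 had levels of 0.85, 0.85, 0.44 and 0.88 in Ezh2-KO kidneys, against 0.17, -0.07, -0.15 and -0.01 in controls (0.77, SE 0.11, adjusted p = 0.00165). Rnf43, a ubiquitin ligase that removes Wnt receptors, had levels of 0.28, 0.45, 0.74 and 1.19 in Ezh2-KO kidneys, against 0.01, -0.44, -0.98 and -0.01 in controls (1.02, SE 0.21, adjusted p = 0.0166), a call that ended without control 2 (0.99). Nkd1 rose by 0.59 (SE 0.11, adjusted p = 0.00959) and Apcdd1 by 0.42 (SE 0.09, adjusted p = 0.0162), a call that ended without Ezh2-KO 4 or control 2 (0.37 each). The general target Axin2 was at 0.05 (adjusted p = 0.876). Among BMP and TGF-beta genes, Id4 was 1 of 20 to rise (0.64, SE 0.15, adjusted p = 0.033), a call that ended without any of 6 arrays (0.53 to 0.68). None of 15 Notch and 17 FGF pathway genes passed the threshold.

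Most genes of lineages outside the kidney were not called. Of 38 lineage transcription factors tested, of 73 listed, 3 rose, beside 2.4% of all genes, and 28 had a positive difference. Only 16 of the 38 were well above background on all controls, so an uncalled factor is not shown to be at control level. The 3 that rose were Bcl11a, its relative Bcl11b (0.52, SE 0.12, adjusted p = 0.033) and Ebf3, a factor of neurons and mesenchyme (0.63, SE 0.16, adjusted p = 0.0398). Bcl11b had levels of 0.26, 0.37, 0.65 and 0.86 in Ezh2-KO kidneys, against 0.06, 0.09, -0.14 and 0.08 in controls. The call of Bcl11b ended without any of 5 arrays (0.41 to 0.54) and that of Ebf3 without any of 6 (0.49 to 0.64). Of 38 Hox genes, 1 rose. The posterior Hoxd13 (0.14, SE 0.12, adjusted p = 0.522) and Hoxa13 (0.07, SE 0.13, adjusted p = 0.761) did not pass, nor did the foregut factor Foxf1 (0.11, SE 0.09, adjusted p = 0.454) and Pax9 (0.24, SE 0.09, adjusted p = 0.12). All 4 were well above background on 0 of 4 controls and on 1 or 2 Ezh2-KO arrays. Of 17 neuronal and neuroendocrine genes, 4 rose, beside 2.4% of all genes, and 13 had a positive difference. The mean level of the 17 was 0.24 to 0.35 on the Ezh2-KO arrays and -0.02 to 0.09 on the controls. Among the 4 were Miat, the ubiquitin hydrolase Uchl1 (0.56, SE 0.10, adjusted p = 0.0095) and the splicing factor Rbfox3 (0.28, SE 0.07, adjusted p = 0.0495). The call of Rbfox3 ended without any of 7 arrays (0.25 to 0.29). None of 3 germline genes tested, of 18 listed, passed.

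Cell-cycle inhibitors did not pass the threshold as single genes, in 0 of 8. Cdkn2a, which encodes p16 and p19ARF, had levels of 0.15, 0.61, 2.01 and 2.08 in Ezh2-KO kidneys, against -0.03, -0.15, 0.02 and 0.06 in controls. It was well above background on 3 of 4 Ezh2-KO arrays and on 0 of 4 controls. All 4 Ezh2-KO values lay above every control, and the fold of the fitted means was 2.36 (adjusted p = 0.052). Cdkn2a passed with median centring (adjusted p = 0.0256), the deposited log ratio (adjusted p = 0.0183), no background correction (adjusted p = 0.0309) and the slide as a block (adjusted p = 0.0345). The main fit did not call it. Median centring called 6655 of 15646 genes higher, so a pass there sets a gene little apart. A further Cdkn2a probe was not well above background on any of these 8 arrays. Its neighbour Cdkn2b had levels of 0.08, 0.27, 0.97 and 1.08 in Ezh2-KO kidneys, against -0.13, -0.17, -0.22 and 0.01 in controls (0.73, SE 0.22, adjusted p = 0.0845). Both were higher on slide 2, a slide difference that did not pass its own test (1.53 for Cdkn2a, adjusted p = 0.169, and 0.81 for Cdkn2b, adjusted p = 0.321). Cdkn1a, the p53-induced inhibitor, was at -0.07 (SE 0.17, adjusted p = 0.838), and none of 24 p53 targets passed. Of 30 proliferation genes Foxm1, a mitotic transcription factor, rose by 0.71 (SE 0.17, adjusted p = 0.0343), a call that ended without any of 5 arrays (0.59 to 0.71) and with the mean over probes. A further Foxm1 probe was at 0.12 (adjusted p = 0.48), while Mki67 was at 0.05 (adjusted p = 0.777). Of 18 immediate early and heat shock genes Ier3 rose by 0.64 (SE 0.15, adjusted p = 0.0303), and of 12 injury and secretion genes the cytokine Gdf15 rose by 0.73 (SE 0.17, adjusted p = 0.0337). These calls ended without any of 5 arrays for Ier3 (0.53 to 0.64) and 6 for Gdf15 (0.64 to 0.71). The immediate early and heat shock list had a median difference of 0.52 beside 0.060 for all genes, with 16 of 18 positive. Its mean level was 0.49, 0.37, -0.37 and -0.004 on the Ezh2-KO arrays and -0.01, -0.30, -0.35 and -0.81 on the controls. These groups overlapped.

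None of 5 erythroid, 8 liver, 9 adrenal and gonad, 4 skeletal muscle, 5 pancreas and gut or 5 sex-linked markers passed the threshold. Erythroid markers averaged -0.10 to 0.60 on the Ezh2-KO arrays and -0.34 to 0.25 on the controls, and adrenal and gonad markers -0.05 to 0.09 and 0.04 to 0.12. Skeletal muscle markers averaged -0.09 to 0.15 on the Ezh2-KO arrays and -0.19 to 0.39 on the controls.

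The comparison was also made within each slide. All 482 called genes had the same sign on both slides. They were called on these same arrays, and for the 457 without overlap between the groups the sign could not differ. The signs and the medians that follow are thus descriptions and not a replication. The genes called higher had a median difference of 0.59 on slide 1 and 0.51 on slide 2, and those called lower of -0.53 and -0.56, where all genes had medians of 0.04 and 0.06. On slide 1 alone 162 genes passed the threshold, and on slide 2 alone 6 did, namely Bcl11a (2.05), Lin28b (2.05), Plk5 (1.28), Ccnd2 (1.06), Wdfy1 (-1.35) and Nr1h5 (-1.69). Plk5 and Ccnd2 were named here after their values were seen. In the test of the difference between slides, 2 genes (0.0128%) passed. The non-coding RNA Rmst had levels of 1.52 and 1.60 in the Ezh2-KO kidneys of slide 1 and 0.11 and 0.22 in those of slide 2, against -0.24 to -0.11 in controls, a slide difference of -1.39 (SE 0.14, adjusted p = 0.0058). For Saa2 it was -1.56 (SE 0.18, adjusted p = 0.0138). The interferon-induced gene Ifi27 had levels of 1.46, 1.15, -0.15 and -0.32 in Ezh2-KO kidneys, against -0.07 to 0.02 in controls, but its slide difference of -1.53 did not pass (SE 0.22, adjusted p = 0.0676). The number of genes with a slide difference was unstable. It was 0 without Ezh2-KO 2 or 3, 12 without control 3, 74 without control 1 and 1222 without control 4.

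**Figure D4:**
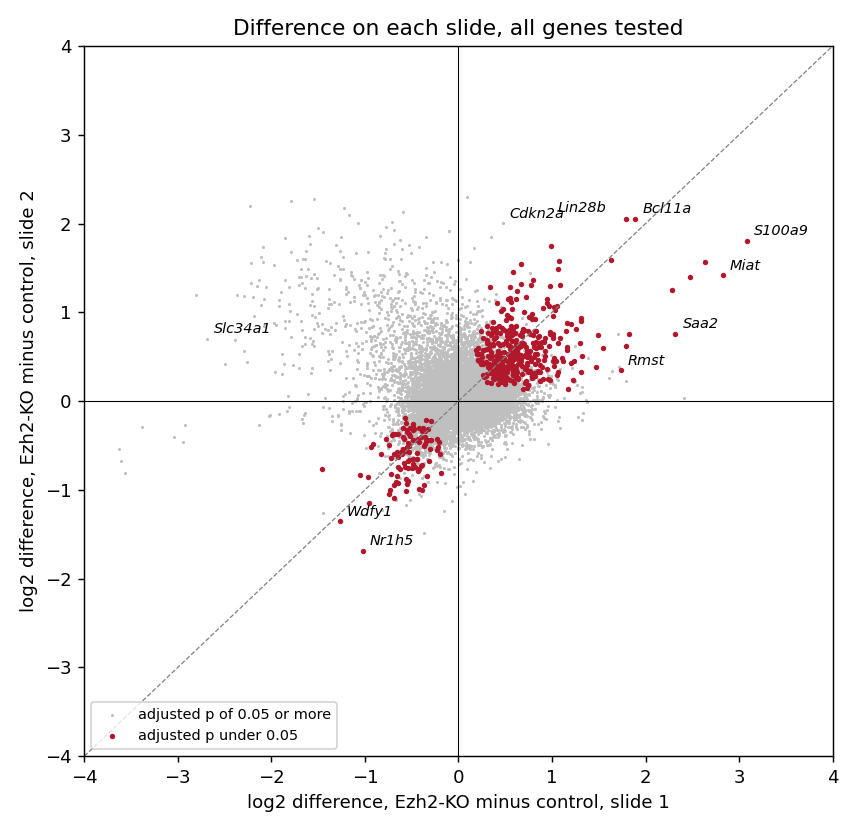
Log2 difference, Ezh2-KO minus control, on slide 1 (x axis) and slide 2 (y axis) for all 15646 genes, with the 482 called genes in red and a dashed line of equality. Bcl11a and Lin28b lie near the line, Saa2 and Rmst below it, and uncalled tubule genes such as Slc34a1 fall in the quadrant of opposite signs.

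The Ezh2-KO group was also set against the genotypes that carry the same Ezh2 deletion with fewer Ezh1 alleles. Against Ezh1-het, 9 of 15646 genes (0.0575%) differed, 3 higher (0.0192%) and 6 lower (0.0383%) in Ezh2-KO. Against the double knockout 143 (0.914%) did, 43 higher (0.275%) and 100 lower (0.639%). At an unadjusted p under 0.05 the counts were 1153 (7.37%) and 1993 (12.7%). Ezh1 followed the labels, with a level of 0.05 ± 0.33 in Ezh2-KO kidneys, -1.13 ± 0.20 in Ezh1-het and -4.55 ± 0.08 in double knockout kidneys (SD, n = 4 each). Cdkn2a was at 1.21 ± 0.98 in Ezh2-KO kidneys, against 3.50 ± 0.12 in Ezh1-het (difference -2.29, SE 0.33, adjusted p = 0.01) and 4.25 ± 0.38 in double knockout kidneys (-3.04, SE 0.33, adjusted p = 7.47e-05). Against Ezh1-het that call ended without Ezh2-KO 2, Ezh1-het 2 or Ezh1-het 4 (-2.57 to -1.93 over all 8 such fits). With the deposited log ratio neither Cdkn2a call passed (adjusted p = 0.73 against Ezh1-het and adjusted p = 0.0555 against the double knockout). Cdkn2b was lower in Ezh2-KO than in double knockout kidneys (-1.08, SE 0.22, adjusted p = 0.0316), as was Cdkn1a (-0.88, SE 0.17, adjusted p = 0.0202). These calls ended without any of 4 arrays for Cdkn2b (-1.25 to -0.90 over all 8 fits) and 5 for Cdkn1a (-0.99 to -0.75), and that of Cdkn2b with the deposited log ratio (adjusted p = 0.153). Cdkn2c, another inhibitor, differed from Ezh1-het by -0.57 (SE 0.10, adjusted p = 0.0477), a call that ended without any of 7 arrays (-0.62 to -0.51) and with median centring (adjusted p = 0.113).

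Some Hox and forkhead genes that did not pass against control differed between Ezh2-KO and the other genotypes. Hoxd13, a limb and tail patterning gene, was at 0.12 ± 0.17 in Ezh2-KO kidneys, against 1.11 ± 0.12 in Ezh1-het (adjusted p = 0.00448) and 2.44 ± 0.25 in double knockout kidneys (adjusted p = 1.66e-08). The Hoxd13 call against Ezh1-het ended with the deposited log ratio (adjusted p = 0.205). Hoxa13 differed from Ezh1-het by -0.86 (SE 0.13, adjusted p = 0.01), a call that ended without Ezh2-KO 2 or Ezh1-het 2 (-0.93 to -0.79 over all 8 fits), and from the double knockout by -1.35 (SE 0.13, adjusted p = 1.36e-05). Foxf1 was at 0.09 ± 0.09 in Ezh2-KO kidneys, against 0.28 ± 0.10 in Ezh1-het (adjusted p = 0.667) and 1.68 ± 0.14 in double knockout kidneys (adjusted p = 1.79e-08). Hoxb13 was not well above background on any Ezh2-KO array or control and was at 2.31 ± 0.44 in double knockout kidneys. Hoxb13 thus passed the filter on dim probes only through the other mutant genotypes, so these detection counts are not separate support. Ebf3, which rose against control, was lower in Ezh2-KO than in double knockout kidneys (-1.45, SE 0.16). Olfr224, an olfactory receptor gene, was lower in Ezh2-KO than in Ezh1-het (-1.52, SE 0.09). It was well above background on 1 Ezh2-KO array, 0 controls and all 4 Ezh1-het arrays. Olfr224 thus passed the filter on dim probes only through the other mutant genotypes, and the size of its difference depends on the floor. Arl16, a small GTPase gene, was higher in Ezh2-KO than in Ezh1-het by 1.06 (SE 0.15). The Arl16 call against Ezh1-het ended without any of 4 arrays (1.01 to 1.15 over all 8 fits), with the deposited log ratio (adjusted p = 0.362) and with median centring (adjusted p = 0.0687). Gm11538 was at -0.05 ± 0.23 in Ezh2-KO kidneys and at 1.60 ± 0.25 in double knockout kidneys (adjusted p = 1.48e-06). It was well above background on 2 Ezh2-KO arrays, 0 controls and all 4 double knockout arrays, so the limits given for Olfr224 apply. They also apply to Hoxd13, Hoxa13 and Foxf1, which were well above background on 1 or 2 Ezh2-KO arrays and 0 controls.

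For the genes that led the comparison with control, no difference between genotypes was detected for most. Of the 35 largest rises and falls, 0 differed from Ezh1-het and 5 from the double knockout. Bcl11a was at 1.82 ± 0.12 in Ezh2-KO kidneys, 1.87 ± 0.11 in Ezh1-het and 2.20 ± 0.24 in double knockout kidneys, against -0.15 ± 0.25 in controls. Its difference was -0.05 from Ezh1-het (SE 0.13, adjusted p = 0.938) and -0.38 from the double knockout (SE 0.13, adjusted p = 0.207). Lin28b differed by -0.07 (SE 0.12) and 0.13 (SE 0.12), Miat by 0.41 (SE 0.29) and -0.27 (SE 0.29), and Cited1 by 0.09 (SE 0.13) and 0.20 (SE 0.13). The 5 that differed from the double knockout were S100a9 (2.64, SE 0.55, adjusted p = 0.0327), Cstdc5 (2.13, SE 0.42), Stfa1 (1.92, SE 0.41), Plbd1 (0.75, SE 0.14) and Hoxb5os (-0.64, SE 0.14). S100a9 was at 1.91 ± 1.43 in Ezh2-KO kidneys, -0.46 ± 0.60 in Ezh1-het and -0.74 ± 0.63 in double knockout kidneys, against -0.54 ± 0.63 in controls. These 5 calls ended without 6, 4, 5, 1 and 6 of the 8 arrays in turn, and with the deposited log ratio those of S100a9 (adjusted p = 0.131), Stfa1 (adjusted p = 0.0555) and Hoxb5os (adjusted p = 0.0792) ended. Rsad2, an interferon-induced antiviral gene, was higher in Ezh2-KO kidneys than in every other genotype. Its levels were 0.27, 0.33, 0.56 and 0.38 there, and it was well above background on 0 arrays of the other 3 genotypes. Rsad2 thus passed the filter on dim probes only through the Ezh2-KO arrays, so these detection counts are not separate support. Against controls the rise was at least 1.34-fold (adjusted p = 0.00535), with adjusted p = 0.0355 against Ezh1-het and adjusted p = 0.00023 against the double knockout. The Ezh1-het call ended without any of 6 arrays (0.38 to 0.48) and with median centring (adjusted p = 0.0687). The comparisons of each genotype with control use the same control arrays, so they are not independent.

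**Figure D5:**
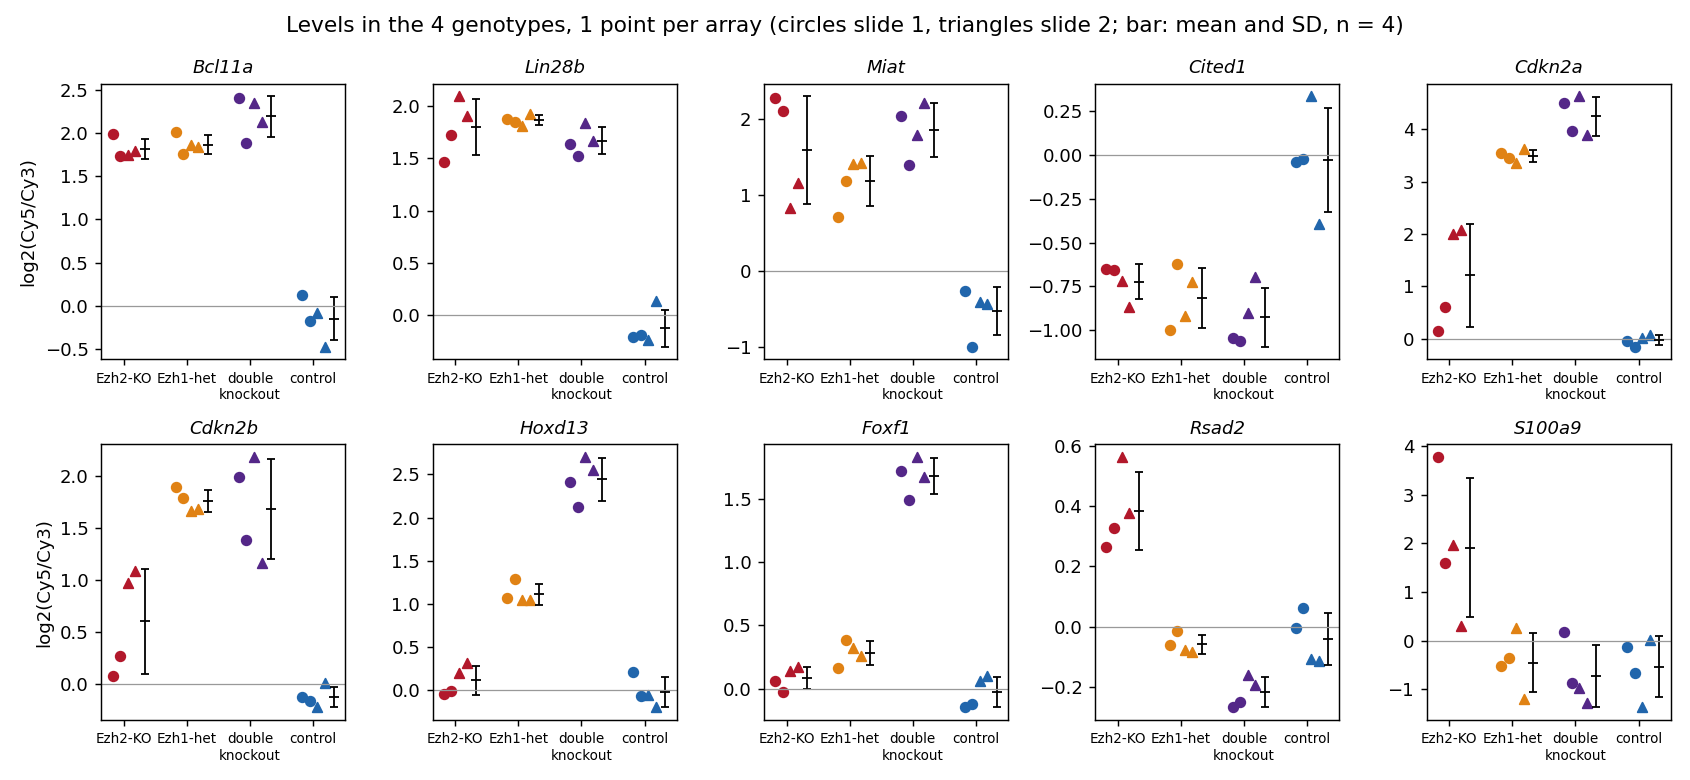
Levels as log2(Cy5/Cy3) of 10 genes in Ezh2-KO, Ezh1-het, double knockout and control kidneys, 1 point per array with mean and SD (n = 4; circles slide 1, triangles slide 2). Bcl11a, Lin28b, Miat and Cited1 lie apart from control in all 3 mutant groups, Hoxd13 and Foxf1 did not pass against control in Ezh2-KO, and Rsad2 is highest in Ezh2-KO.

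Over all 34731 probes that passed the filter, named or not, 913 (2.63%) differed, 581 higher (1.67%) and 332 lower (0.956%). Of the 11869 probes with no gene symbol here, 219 differed, 98 higher and 121 lower. The largest rises among them were A_52_P82704 (1.43, SE 0.10, adjusted p = 1.16e-06), A_51_P242634 (1.43, SE 0.33) and A_55_P2154208 (1.41, SE 0.12). A_52_P82704 had levels of 1.56, 1.38, 1.49 and 1.42 in Ezh2-KO kidneys and was well above background on 0 of 4 controls (-0.10 to 0.12). The 3 largest falls were probes of 1 transcript accession, A_55_P2565709, A_55_P2565704 and A_55_P2565734, with differences of -1.66, -1.64 and -1.63 (SE 0.26 to 0.27). A_55_P2565709 had levels of -1.34, -1.72, -1.55 and -2.31 in Ezh2-KO kidneys, against 0.03, 0.04, 0.15 and -0.49 in controls, without overlap. Of the 482 called genes, 167 had further probes, and 174 of those 214 probes had the same sign as the probe that stood for the gene, while 46 were called in the same direction. Further probes of Fam205a2 (0.09 and 0.19), Lypd1 (0.18), Meis1 (0.45), Dlk1 (0.47), Bmi1 (0.45) and Zim1 (-0.26) did not pass.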

How the data were processed

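RNA of whole kidneys was hybridised to 16 Agilent arrays in 2 colours, sample in Cy5 and control 1 RNA in Cy3 with no dye swap, per the labels. Per the file headers and the submitters' processing notes, the deposited median spot intensities and the log10 ratio (background-subtracted and dye-normalised) were written by version 10.7.3.1 of Agilent Feature Extraction. The authors' deposited value table is that log10 ratio rounded, with differences of at most 0.005, column medians of 0 and the same direction. Median intensities were corrected with normexp (offset 50) and loess within arrays in limma 3.58.1 (R 4.3.3), leaving out control spots and the 69 to 343 flagged spots per array. No spot was saturated. Spots of a probe were averaged and probes kept if 4 or more of the 16 arrays had them well above background in Cy5. The brightest probe stood for its gene, and symbols came from RefSeq through accessions. Log2 ratios of all 16 arrays were fitted with lmFit and eBayes in 1 model, two-sided, adjusted by Benjamini-Hochberg over all genes (threshold 0.05). The design text calls the arrays biological replicates, litters are not given, and the number of arrays limits the precision. The scripts were tested on simulated data.

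Genes were named by rule: the 20 largest rises and 15 largest falls among called genes without overlap between groups, called members of gene lists, 32 key genes, the 8 lowest p in each other test and 3 unnamed probes per direction. The members, the lists and these rules were chosen with earlier results of these data known. Alternatives were median centring, the deposited ratio and value table, no background correction, other filters, probe means, another variance model, array weights, only these 8 arrays, slide or replicate number as a block, single slides, and leaving out arrays. "At least" folds are the smaller of the fitted fold and the fold over the floor in the Cy5 channel after loess and Aquantile, which is open to dye bias. The array was annotated on mm9 and promoters on GRCm38.p6, so no probe coordinates are given. Some called genes are not reported here by name.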

Additional observations from a re-analysis of the deposited data

Results flagged for a closer look

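In 12 of 220 groups of 4 arrays examined, 1 array stood apart from the other 3 by a gap past Dixon's critical share of the group's range, where chance gives about 1 in 20. Among Ezh2-KO arrays, Ezh2-KO 4 was apart for Vstm2l (1.195, others 0.99 to 1.02), Gm14322 (-0.813, others -0.12 to -0.02), Lypd1 (0.480, others 0.24 to 0.28), Zdbf2 (0.939, others 0.73 to 0.75) and Lin28a (-0.254, others 0.06 to 0.10). Ezh2-KO 1 was apart for the calcium-binding Ocm (-0.686, others -1.11 to -1.06) and the PRC2 subunit Suz12 (-0.217, others 0.05 to 0.10), and Ezh2-KO 3 for the Wnt antagonist Wif1 (0.441, others 0.85 to 0.88). Among controls, control 4 was apart for Lin28b (0.135, others -0.24 to -0.19), control 3 for S100a8 (-0.491, others -0.07 to 0.00) and Bcl11b (-0.139, others 0.06 to 0.09), and control 2 for Nr6a1 (-0.436, others -0.21 to -0.17).

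The Ezh2-KO minus control difference was smaller on slide 2 than on slide 1 for Rmst (-1.388, adjusted p = 0.0058) and Saa2 (-1.557, adjusted p = 0.0138) by limma's test of the slide difference.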

How the results depend on the processing

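The 482 genes called against control became 6827 with median centring, 881 with array weights, 608 with the slide as a block, 59 with only these 8 arrays, 162 and 6 on slides 1 and 2 alone, 78 without controls 2 and 3 and 202 to 515 without 1 array. The labels do not say whether the replicate numbers pair the samples. Correlations between same-numbered Ezh2-KO and control arrays were -0.478, 0.0169, -0.452 and 0.337, and the fit with the replicate block called 462. The other alternatives gave 415 to 534. The 913 probes became 10104 with median centring. The 2 genes with a slide difference became 1 with median centring and 0 to 1222 without 1 array. The 9 genes against Ezh1-het became 4 with the replicate block and 3 to 35 without 1 array (35 without Ezh2-KO 4), and the 143 against the double knockout 84 to 142. With median centring Eya1 reversed to 0.367 (adjusted p = 0.0267). The causes were not tested, and the fits that leave arrays out change both the number and the identity of the arrays. Of the 74 named genes called, 37 were called whichever array was left out, 62 with median centring, 64 with the deposited ratio, 17 with only these 8 arrays and 23 without controls 2 and 3, and none reversed. Weak signal on control 2 limits dim probes.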

Other observations

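Genes of antigen presentation and the interferon response were looked at after the values of H2-K1 and Rsad2 had been seen, so the list is a description. Of 30 such genes tested, 10 rose and none fell in Ezh2-KO against control kidneys, where 2.4% of all genes rose. The 10 include H2-K1 and Rsad2, which prompted the list. The median difference of the 30 was 0.42 (0.57 on slide 1 and 0.31 on slide 2). The class I genes H2-D1 (0.99, SE 0.18, adjusted p = 0.00709), H2-Q7 (1.02, SE 0.16, adjusted p = 0.00273) and H2-T23 (0.75, SE 0.12, adjusted p = 0.00369) rose, as did their light chain B2m (0.67, SE 0.14, adjusted p = 0.0162), the peptide transporter genes Tap1 (0.57, SE 0.11) and Tap2 (0.74, SE 0.13) and Bst2 (1.03, SE 0.16), which tethers virus particles. Class I genes are alike in sequence, so their probes may share signal. H2-Q7 had levels of 0.42, 0.78, 0.82 and 1.07 in Ezh2-KO kidneys, against -0.05, -0.64, -0.41 and 0.10 in controls. Bst2 had levels of 0.65, 0.69, 0.75 and 0.55 in Ezh2-KO kidneys, against -0.20, -0.52, -0.60 and -0.14 in controls, without overlap. The antiviral gene Oas1a had levels of 1.90, 1.11, 0.89 and 0.44 in Ezh2-KO kidneys, against 0.00, 0.02, -0.75 and 0.60 in controls, which overlap (1.12, SE 0.28, adjusted p = 0.0403). Isg15 had levels of 1.82, 1.49, 0.30 and 0.37 in Ezh2-KO kidneys, against 0.18, -0.29, -0.45 and 0.35 in controls, higher on slide 1, and did not pass (1.05, SE 0.28, adjusted p = 0.0536).

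A set of 39 genes was tested and called in the main comparison and in each of 21 alternatives other than the single slides, 37 of them higher and 2 lower. Besides genes already described (among them Bcl11a, Lin28b, Miat, Fbln2, H2-K1, Vstm2l, Nr6a1, Zdbf2, Bmi1, Wif1 and Wdfy1), it held the cyclin gene Ccnd2 (1.04, range 0.99 to 1.65 over the alternatives), the adaptor Skap2 (1.05, range 0.89 to 1.51), the deubiquitinase Usp44 (0.89, range 0.61 to 2.58), the chemokine genes Cx3cl1 (0.86, range 0.69 to 1.41) and Ccl21a (0.88, range 0.80 to 1.66), the nuclear receptor Nr2f1 (0.79, range 0.74 to 1.38) and the integrin chain Itgb3 (0.61, range 0.49 to 1.80). Of genes described before, Bcl11a ranged from 1.34 to 3.25, Lin28b from 1.135 to 5.22, Miat from 1.13 to 2.53 and Wif1 from 0.67 to 2.18 over these alternatives. Of the 2 lower, the other was Rasef (-0.60, range -1.09 to -0.52).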
